A study of Mus musculus with 21 samples.

Results

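PC134-0 and PC326-1 are mouse glioma stem-like cell (GSC) lines labelled IDH1 WT, derived from engineered mouse models of brain tumours, and they were compared across autosomal genes in 3 mRNA-seq libraries each. The genes described are those on chromosomes 1 to 19 with a mean of at least 0.5 FPKM (fragments scaled to the length of the gene and the size of the library) in at least one of the 2 lines. They were 13054 of the 50225 autosomal genes in the deposited table, which lists 54532 genes in all. Of these, 12145 passed in both lines, 538 in PC134-0 only and 371 in PC326-1 only. The gene nearest to the threshold had 0.501 FPKM in its higher line, and the nearest gene left out had 0.499798 FPKM. The other 37171 autosomal genes were below the threshold in both lines and were not tested.

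The series holds 7 such lines with 3 libraries each, 21 in all: PIC496-4, PIC496-3, PIC144-3 and PIC144-1 carry the IDH1 mutant label, and PC134-0, PC326-1 and PC308-1 the IDH1 WT label. All were untreated and grown as floating cultures in NeuroCult stem cell medium with EGF, bFGF, heparin, antibiotics and an antifungal, at 5% oxygen. No age, sex, mouse genotype beyond IDH1 or driver of tumour formation is given in the sources used here, and nothing says whether a line is 1 clone. The labels call the libraries of a line biological replicates without saying that they came from separate cultures, so the p-values measure the spread between these libraries, which may be technical. The results describe these 2 lines and no wider group. The 6 libraries held 15011668 to 17574604 fragments, recovered as whole numbers from the deposited values. The labelled cell type was set against a few markers in both lines. Olig1, a transcription factor of the oligodendrocyte lineage, had 484, 361 and 390 FPKM in PC134-0 and 436, 366 and 448 FPKM in PC326-1. Sox10, of the oligodendrocyte progenitor list, and the astrocyte gene Gfap had at most 0.107 and 0.154 FPKM in any of the 6 libraries. Of 16 listed microglia and macrophage genes, 5 (Itgam, C1qa, C1qb, C1qc and Tyrobp) had no fragment in the 6 libraries. Cd68, of the same list, averaged 5.05 and 0.880 FPKM in PC134-0 and PC326-1.

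Glioma stem-like cells are tumour cells kept in conditions that favour neural stem and glial progenitor programs, and lines from different tumours carry their own mutations, chromosome changes and positional gene programs. IDH1 encodes the cytosolic isocitrate dehydrogenase that makes 2-oxoglutarate, and its tumour mutants make 2-hydroxyglutarate instead, which inhibits enzymes that demethylate DNA and histones. Neither line carries the mutant label.

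PC134-0 and PC326-1 were the most alike of the 21 pairs of lines. Over 14705 genes, the correlation of the line means on the log2(FPKM + 0.5) scale was 0.986, against 0.913 to 0.963 in the other 20 pairs, as a description with genes as points. The median absolute difference was 0.14 on that log2 scale, against 0.25 to 0.44 in the other pairs, and 2.31% of genes differed by more than 1, against 7.01% to 17.9%. The libraries did separate by line, with library correlations of 0.982 to 0.986 within a line and 0.967 to 0.975 between the lines, and no pair of libraries agreed within sampling noise.

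Still, 1943 of the 13054 autosomal genes (14.9%) differed between the lines at a Benjamini-Hochberg adjusted p under 0.05 by limma on log2(FPKM + 0.5), the test behind every adjusted p below. Of these, 1026 (7.86% of those tested) were higher in PC134-0 and 917 (7.02%) were lower. Many of the differences were small: 1015 of the 1943 were under 0.5 on the log2 scale, the smallest being 0.20, and the median absolute difference of all tested genes was 0.14, or 1.10-fold. At least 2-fold differences were called for 270 genes (2.07%), of which 162 (1.24%) were higher and 108 (0.827%) lower in PC134-0. The libraries of the lines did not overlap for 4440 genes (34.0%), and 3718 genes had an unadjusted p under 0.05. Among the genes above the threshold in one line only, 91 of 538 were called for PC134-0 and 49 of 371 for PC326-1. Without PC326-1 replicate 1 the count fell to 1191 genes, and with rescaling to TPM 66.7% of the calls were higher in PC134-0, against 52.8% as reported. With a pseudocount of 1 the 2-fold count was 156, and with limma voom on recovered fragments it was 483.

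**Figure D1:**
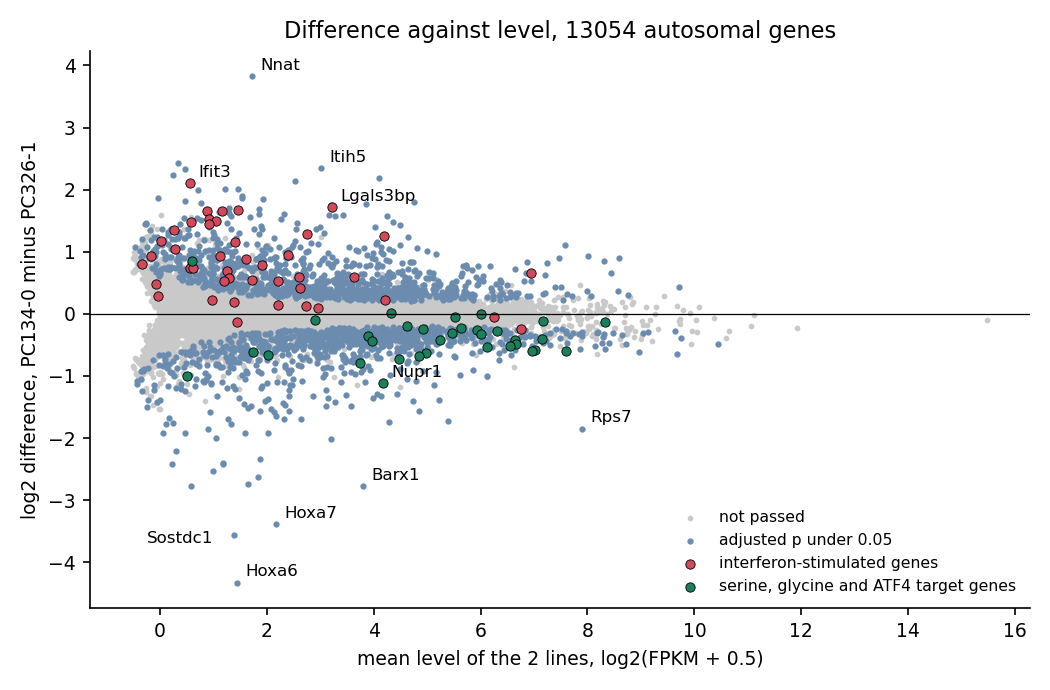
Each point is 1 of the 13054 autosomal genes, with the mean log2(FPKM + 0.5) of the 2 lines on the x axis and the log2 difference, PC134-0 minus PC326-1, on the y axis; blue points passed, red points are interferon-stimulated genes and green points are serine, glycine and ATF4 target genes. Nnat lies highest at 3.83 and Hoxa6 lowest at -4.33, the red points lie mostly above 0 and the green points mostly below it.

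The gene with the largest difference in favour of PC134-0 was Nnat (ENSMUSG00000067786, chromosome 2 from 157560078 to 157562522 in GRCm38), an imprinted gene that encodes neuronatin, a small membrane protein of the endoplasmic reticulum. It had 13.7, 10.8 and 11.4 FPKM in PC134-0, against 0.365, 0.484 and 0.279 FPKM in PC326-1. The log2 difference was 3.83 (SE 0.125, limma adjusted p = 5.2e-06). Both lines lay below the other 5 lines, which had means of 24.7 to 142 FPKM, and PC326-1 was the lowest of all. Nnat lies within Blcap on the opposite strand, whose 20.7 and 18.6 FPKM in PC134-0 and PC326-1 did not pass (adjusted p = 0.17), and the use of strand in counting is not given in the sources used here.

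Several of the other genes with the largest higher values take part in neural surface contacts and matrix. Itih5, a secreted hyaluronan-binding protein, had 17.7 ± 0.279 FPKM in PC134-0 and 3.08 ± 0.341 FPKM in PC326-1 (SD, n = 3 each), and at most 0.66 FPKM in the other 5 lines. Slitrk5, a synaptic adhesion receptor, had 2.95, 2.54 and 2.34 FPKM in PC134-0, against 0.127, 0.101 and 0.121 FPKM in PC326-1, where the other 5 lines had means of 2.91 to 13.2 FPKM. Moxd1, a copper-dependent monooxygenase of neural crest, had 36.1 ± 1.15 FPKM in PC134-0 and 7.497 ± 0.492 FPKM in PC326-1. These differences were 2.35, 2.33 and 2.19 on the log2 scale, with adjusted p of 5.2e-06, 5.7e-05 and 4.0e-06. In each of the 3 genes the PC134-0 libraries lay close together. That they lay above all PC326-1 libraries was a condition of the rule that named these genes.

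Gap43, a growth cone protein, reached 50.5, 50.7 and 47.9 FPKM in PC134-0, against 15.005, 13.98 and 12.96 FPKM in PC326-1 (log2 difference 1.80). Lhfpl3 and Pcdh15, both typical of oligodendrocyte progenitors, differed by 2.15 and 1.87, with means of 11.7 and 5.04 FPKM in PC134-0, against 2.25 and 1.02 FPKM in PC326-1. The tyrosine phosphatase gene Ptpn5 (2.02), the adhesion gene Pcdh17 (1.85), the secreted guidance glycoprotein gene Reln (1.82) and the G protein subunit gene Gng4 (1.78) completed this set, with means of 2.09 to 6.73 FPKM in PC134-0 and 0.236 to 1.52 FPKM in PC326-1. Omg, which encodes a myelin glycoprotein and lies inside Nf1 on the opposite strand, averaged 5.05 and 1.02 FPKM in PC134-0 and PC326-1, while Nf1 itself did not pass (10.5 and 11.3 FPKM). The miRNA gene Mir6993 had 9 fragments in PC134-0 and none in PC326-1, which makes it at least 2.92-fold higher against a floor of 3 fragments over the 3 libraries, but it lies inside Fads1 on the same strand, so its fragments may belong to that transcript.

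The largest lower values in PC134-0 were mostly of transcription factors, and several of these mark position along the body and brain. HOX genes lie in 4 clusters and encode homeodomain factors whose combination marks anterior to posterior position, and forebrain tissue normally lacks them. Of the 4 clusters, only HoxA on chromosome 6 was read above the threshold in these lines: 8 of its 11 genes were tested, against 0 of the 10 HoxB, 9 HoxC and 10 HoxD entries. Along HoxA, the genes split by order. Hoxa2 and Hoxa3 did not pass (log2 differences -0.04 and 0.12), Hoxa4 was just past the threshold in the other direction (0.37, adjusted p = 0.046), and Hoxa5, Hoxa6, Hoxa7 and Hoxa10 were all lower in PC134-0. The call of Hoxa4 ended under 8 settings, with an adjusted p of 0.136 without PC134-0 replicate 1, and Hoxa2 turned to 0.028 with TPM and to 0.011 and 0.0091 without PC134-0 replicate 2 and PC326-1 replicate 3, while Hoxa5 to Hoxa7 and Hoxa10 stayed lower under all 20 other settings.

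Hoxa5 had 9.29, 9.15 and 9.70 FPKM in PC134-0, against 26.6, 24.7 and 23.3 FPKM in PC326-1 (log2 difference -1.36, SE 0.067, adjusted p = 2.4e-05). Hoxa6 (ENSMUSG00000043219, chromosome 6 from 52206288 to 52208722) had 0.135, 0.0722 and 0.124 FPKM in PC134-0, against 12.2, 9.92 and 13.3 FPKM in PC326-1. On the log2(FPKM + 0.5) scale that was the largest difference of all tested genes, at -4.33 (SE 0.123, adjusted p = 3.8e-06), and it rests on 5 fragments in PC134-0 and 505 in PC326-1. With limma voom on recovered fragments Hoxa10 lay further from 0 than Hoxa6, at -7.42 and -6.36. Hoxa7 had 1.01, 0.812 and 0.867 FPKM in PC134-0, against 14.5, 13.9 and 13.9 FPKM in PC326-1 (-3.39). Hoxa10 had 1 fragment in PC134-0 and 357 in PC326-1, a level 367 times higher in PC326-1 with a 95% counting interval of 65.5 to 14549.7. Hoxa9, Hoxa11 and Hoxa13 were below the threshold, with no fragment in PC134-0 and 0.265, 0.0186 and 0.0422 FPKM in PC326-1. Transcripts of Hoxa3 run across Hoxa5 and Hoxa6 on the same strand, so their fragments may be shared in part. Of the 73 other coding genes between 40 and 60 Mb of chromosome 6, 8 were higher and 7 lower, with a median log2 difference of -0.01.

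Across the 7 lines, PC134-0 had the lowest mean at Hoxa5, Hoxa6, Hoxa7 and Hoxa10, and at Hoxa10 PIC496-3 was near 0 as well. Hoxa7 averaged 0.895 FPKM in PC134-0, 14.1 in PC326-1, 19.6 in PC308-1, 9.98 in PIC144-1, 9.02 in PIC144-3, 2.86 in PIC496-3 and 18.9 FPKM in PIC496-4. Hoxa6 averaged 0.111 FPKM in PC134-0, and the next lowest line was PIC496-3 with 1.20 FPKM. Hoxa10 averaged 0.00603 FPKM in PC134-0 and 2.23 FPKM in PC326-1, against 0.0349 FPKM in PIC496-3 and 1.21 to 10.4 FPKM in the other 4 lines. Hoxa2 gave another order, with 14.3 and 14.7 FPKM in PC134-0 and PC326-1 and 1.69 to 8.39 FPKM in the other lines.

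**Figure D2:**
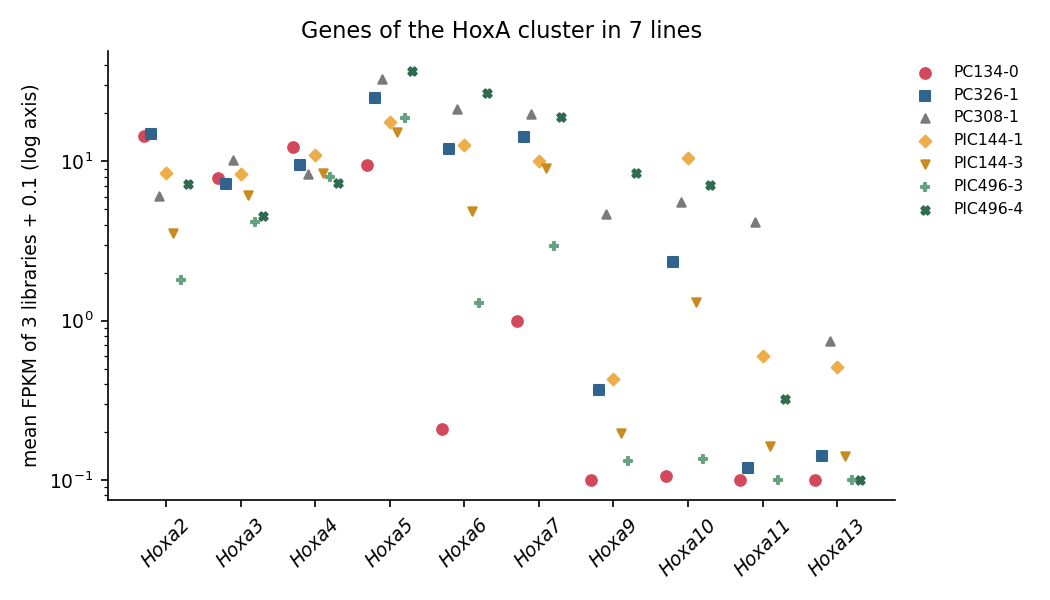
Mean FPKM of 3 libraries plus 0.1 (log axis) for 10 genes of the HoxA cluster, in chromosomal order, in each of the 7 lines; larger symbols mark PC134-0 and PC326-1. The 2 lines lie together at Hoxa2 to Hoxa4 and part at Hoxa5, and PC134-0 is the lowest line from Hoxa5 to Hoxa7.

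A homeobox patterning list of 30 tested genes holds the 8 tested HoxA genes, and 9 of the 30 fell and 2 rose in PC134-0. Without HoxA, 5 of 22 fell (22.7%) and 1 rose, with a median log2 difference of -0.08, against 7.02% lower, 7.86% higher and a median of 0.00 over all autosomal genes. Hoxa6, Hoxa10 and Zfhx4 were above the threshold in PC326-1 only. Of the 64 tested genes that the authors' deposited table files under the Homeobox family, 16 fell and 5 rose, or 12 and 4 of 56 without HoxA. List genes outside HoxA that fell included Zfhx4 (-1.24), En2, Nkx2-2 (-0.75) and En1 (-0.51). En2, a midbrain and hindbrain factor, averaged 0.761 and 2.12 FPKM in PC134-0 and PC326-1 (log2 difference -1.06). Outside that list, Barx1, a homeobox gene of facial mesenchyme and stomach, had 5.03, 4.83 and 4.61 FPKM in PC134-0, against 34.3, 38.3 and 35.4 FPKM in PC326-1 (-2.78, SE 0.0667). Foxa2, a factor of floor plate and endoderm, had at most 0.125 FPKM in PC134-0, against 3.30, 3.83 and 3.13 FPKM in PC326-1, and PC326-1 was its highest line of the 7. Zic2 and Zic1, zinc finger factors of the dorsal neural tube, averaged 0.932 and 0.482 FPKM in PC134-0 and 8.38 and 4.72 FPKM in PC326-1. Foxd1 (-2.53) and Prrx2 (-1.93), which mark mesenchyme of several organs, were also lower in PC134-0.

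The other genes with the largest lower values in PC134-0 were of varied function. Sostdc1, a secreted inhibitor of BMP and Wnt signals, had 0.365, 0.284 and 0.152 FPKM in PC134-0, against 8.71, 8.51 and 8.28 FPKM in PC326-1 (log2 difference -3.56, SE 0.12). Pcsk1, a prohormone protease, had 0.781, 0.642 and 0.735 FPKM in PC134-0, against 7.77, 6.34 and 8.88 FPKM in PC326-1, and at most 0.37 FPKM in the other 5 lines. For both genes PC326-1 was the highest of the 7 lines. The potassium channel gene Kcnc1 (-2.39), the cell polarity gene Patj (-2.33), the matrix gene Vtn (-2.20) and the actin-binding gene Coro2a (-1.999) were lower as well, with means of 0.0757 to 1.14 FPKM in PC134-0 and 2.17 to 7.73 FPKM in PC326-1.

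Interferon-stimulated genes were higher in PC134-0 as a group. Type I interferons signal through JAK kinases to the factor ISGF3, which binds interferon response elements in the promoters of antiviral genes. Of a list of 62 such genes, 43 were tested: 30 rose in PC134-0, none fell and 13 did not pass, with 15 at least 2-fold and a median log2 difference of 0.74. The background was 7.86% of genes higher and a median of 0.00. Of the 43 genes, 9 were above the threshold in PC134-0 only, and 7 of the 30 calls were among them. With a threshold on the mean of all 6 libraries, which does not favour a line, 28 genes rose and the median over the 39 tested was 0.74. The other 19 genes of the list stayed below the threshold in both lines.

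Promoters of genes of this group are shown because the genes moved together, with matches to the core of the interferon response element in capitals (GAAA, any 2 bases and GAAA again, on either strand, read in the 200 bases before the RefSeq start in GRCm38.p6). The matches in Isg15 overlap each other.
Ifit3 (chr19:34583329-34583528, plus strand): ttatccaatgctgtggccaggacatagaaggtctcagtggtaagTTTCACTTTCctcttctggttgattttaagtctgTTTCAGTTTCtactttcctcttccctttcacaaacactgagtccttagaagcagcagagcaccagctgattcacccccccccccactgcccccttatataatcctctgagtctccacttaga
Ifit1 (chr19:34640689-34640888, plus strand): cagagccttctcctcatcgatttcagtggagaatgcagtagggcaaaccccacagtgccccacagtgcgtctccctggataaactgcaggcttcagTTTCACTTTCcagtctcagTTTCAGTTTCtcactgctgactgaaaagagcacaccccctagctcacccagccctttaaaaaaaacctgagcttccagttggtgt
Isg15 (chr4:156200819-156201018, minus strand): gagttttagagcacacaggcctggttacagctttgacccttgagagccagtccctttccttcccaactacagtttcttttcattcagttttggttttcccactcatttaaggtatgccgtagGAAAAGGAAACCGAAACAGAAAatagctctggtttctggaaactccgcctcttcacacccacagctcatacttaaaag

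In the 250 bases before the start, 14 of the 35 tested list members with a RefSeq promoter (40.0%) held this motif. The share was 2.98% of the 9089 tested autosomal genes with a promoter and 3.46% of all 27025 genes with one. The motif was in 10 of the 24 members that rose and in 4 of the 11 that did not pass. A match describes the letters of the window and not binding, and no match says only that these letters are not in it.

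Ifit3 (ENSMUSG00000074896, chromosome 19 from 34583531 to 34588731), which encodes an antiviral RNA-binding complex member, had 2.27, 3.76 and 1.77 FPKM in PC134-0, against 0.139, 0.135 and 0.329 FPKM in PC326-1. Its log2 difference was 2.10 (SE 0.244, adjusted p = 0.0014). Ifit1, which binds foreign RNA caps, had 3.32, 6.56 and 3.63 FPKM in PC134-0, against 1.00, 1.02 and 1.01 FPKM in PC326-1 (1.67, SE 0.219). Isg15, a ubiquitin-like modifier, averaged 9.97 ± 1.38 FPKM in PC134-0 and 3.81 ± 0.551 FPKM in PC326-1 (SD, n = 3 each, log2 difference 1.28). The lines did not overlap at any of these genes, and Ifit3 has a near-identical copy, Ifit3b, that can share its fragments. PC134-0 replicate 2 was the highest library at Ifit3 and Ifit1. That library was the highest of its line for 27 of the 30 genes that rose, and without it 24 genes of the list rose.

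Lgals3bp, a secreted glycoprotein that binds galectins, was the most even of the strong ones, with 16.2, 17.4 and 15.99 FPKM in PC134-0, against 4.54, 4.72 and 4.80 FPKM in PC326-1 (log2 difference 1.71, SE 0.064, adjusted p = 8.1e-06). Rtp4, a chaperone induced by interferon (1.66), Usp18, the protease that removes ISG15 and damps the pathway (1.65), and Mx2, a dynamin-like GTPase gene annotated as a polymorphic pseudogene (1.53), had means of 2.66 to 3.48 FPKM in PC134-0 and 0.533 to 0.756 FPKM in PC326-1. Rtp4 overlaps Masp1 on the opposite strand, which did not pass. Among the regulators, Irf7, the factor that amplifies interferon production, had 1.30, 1.55 and 1.36 FPKM in PC134-0, against 0.0963, 0.359 and 0.321 FPKM in PC326-1 (1.34). Irf9 differed by 0.88, while Stat2 had 4.38 and 3.93 FPKM in PC134-0 and PC326-1 and did not pass. In the wider list of receptors, JAK-STAT and IRF genes 6 of 26 rose and 4 fell, with a median of -0.02. Over all autosomal genes 7.86% were higher and 7.02% lower. Left to chromosomes without the shifts described below, the interferon-stimulated list had 23 of 33 genes higher and a median of 0.74.

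Compared with the whole series, PC134-0 was the highest of the 7 lines for 26 of the 30 genes. PC326-1 was not low among the lines: it lay above all 5 lines outside the pair for 14 of the 30, above PIC496-4 for 29 and above PIC144-3 for 17. Cxcl10, an interferon-induced chemokine that attracts T cells, averaged 15.05 ± 3.98 FPKM in PC134-0 and 4.64 ± 1.12 FPKM in PC326-1, and 0.213 to 4.11 FPKM in the other lines.

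**Figure D3:**
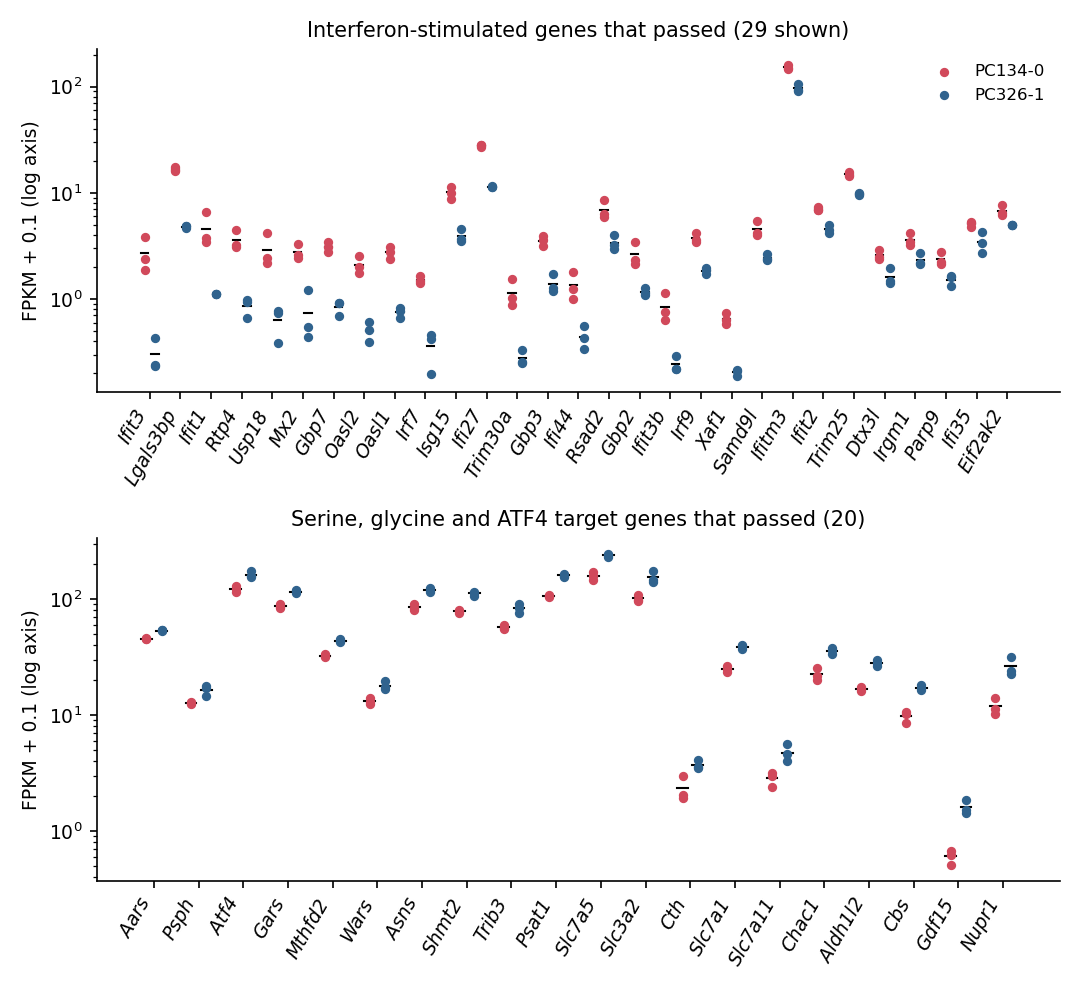
FPKM plus 0.1 (log axis) of each library for 29 interferon-stimulated genes (top) and the 20 serine, glycine and ATF4 target genes (bottom) that passed, PC134-0 in red left of PC326-1 in blue, with the mean as a bar. All red points lie above the blue ones of the same gene in the top panel and below them in the bottom panel.

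Of 14 chemokine and cytokine genes tested, 5 rose (35.7%, against 7.86% of all autosomal genes), 4 of them at least 2-fold, 1 fell and 8 did not pass. Ccl5 had 3.20, 4.08 and 4.52 FPKM in PC134-0, against 0.631, 1.17 and 0.798 FPKM in PC326-1 (log2 difference 1.71), and Cxcl10 differed by 1.59. The cytokine genes Il34 (1.22) and Il33 (1.02) were higher, and Cx3cl1, a membrane-bound chemokine of neurons, was lower (-0.71). Of 20 class I antigen presentation genes, 7 rose (35.0%), none fell and 13 did not pass, with a median of 0.23. The differences were mostly small: B2m, the light chain of class I molecules, had 218, 242 and 227 FPKM in PC134-0, against 184, 204 and 178 FPKM in PC326-1 (0.28, adjusted p = 0.044), and H2-K1 averaged 50.9 and 41.2 FPKM (0.30). H2-T23 (0.88), Tapbpl (0.77) and Tapbp (0.52), an unconventional class I molecule and tapasin-type loading factors, differed more. Class I genes have near-identical copies that can share fragments, so the values of H2-K1 and H2-T23 are uncertain. Across the alternative settings 3 to 9 of these genes rose and none fell. Tapbpl lies on distal chromosome 6, and without the shifted chromosomes described below 6 of 19 class I genes rose. In the small class II list, 1 of 4 genes rose and 3 did not pass.

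Of 34 genes that sense nucleic acids, 24 did not pass, and no test of a difference between the RNA and DNA lists was made. Of 17 genes of double-stranded RNA sensing, 6 rose (35.3%, against 7.86% of all autosomal genes), 1 fell and 10 did not pass, with a median of 0.26. Ifih1, which encodes the RNA sensor MDA5, had 0.666, 1.03 and 0.710 FPKM in PC134-0, against 0.186, 0.173 and 0.172 FPKM in PC326-1 (0.93). Ddx58, which encodes RIG-I, averaged 4.89 and 3.29 FPKM in PC134-0 and PC326-1 (0.50), and Tlr3, an endosomal RNA receptor, 24.2 and 14.997 FPKM (0.68). Oasl1, Trim25 and Eif2ak2, the last a kinase that stops translation, rose by 1.44, 0.59 and 0.42. Genes of this list, not only these 3, are themselves interferon-induced, so its count is not independent of the interferon-stimulated list. Oas1a, Oas2 and Oas3, which were not tested, are in both lists. Of 17 genes of cytosolic DNA sensing, none rose, 14 did not pass and 3 fell (17.6%, against 7.02%): Lrrc8c (-0.56), Banf1 (-0.39) and Trim56 (-0.33). Banf1 lies on chromosome 19, where 179 of 441 genes were lower, and without the shifted chromosomes described below 2 of 15 fell and the median moved to 0.01, against -0.06. Tmem173, which encodes STING, had 61.6, 50.1 and 54.8 FPKM in PC134-0 and 66.2, 54.1 and 60.7 FPKM in PC326-1, and the lines overlapped (adjusted p = 0.48). In the NF-kappaB list 2 of 23 genes rose and 3 fell, and without the shifted chromosomes 1 of 18 rose and 1 fell. Interferon protein was not measured.

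The gene named in the study's question, Cgas, the cytosolic DNA sensor (listed under its older symbol Mb21d1, chromosome 9 from 78430526 to 78443237), had 3.63, 4.21 and 3.90 FPKM in PC134-0, against 3.16, 3.20 and 3.36 FPKM in PC326-1. The libraries of the lines did not overlap, but the log2 difference of 0.24 did not pass over all genes (adjusted p = 0.0996). The exact permutation test, two-sided, gave p = 0.1, the smallest value that 3 libraries against 3 allow. Idh1 itself, whose transcript level does not check the IDH1 label, had 82.0, 79.9 and 77.6 FPKM in PC134-0 and 84.9, 75.9 and 88.1 FPKM in PC326-1, and overlapped (exact permutation p = 0.5).

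Genes of the amino acid response were lower in PC134-0. The factor ATF4 is translated when amino acids are short or the endoplasmic reticulum is stressed, and it drives genes for serine and glycine synthesis, amino acid transport and charging of tRNA. Of 33 tested genes of this list, 20 fell, none rose and 13 did not pass, with a median log2 difference of -0.42, against 7.02% of all autosomal genes lower. Left to chromosomes without the shifts described below, 15 of 27 fell and the median was -0.36. A single gene of the 20, Nupr1, was lower by at least 2-fold.

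Promoters of a pair of these genes show the core of the ATF4 response element in capitals (TGATGNAA on either strand, same window and build as above).
Chac1 (chr2:119351042-119351241, plus strand): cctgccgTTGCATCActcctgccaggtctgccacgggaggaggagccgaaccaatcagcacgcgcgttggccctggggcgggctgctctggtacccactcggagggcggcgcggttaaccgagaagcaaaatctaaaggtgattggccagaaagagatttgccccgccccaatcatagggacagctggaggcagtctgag
Asns (chr6:7693210-7693409, minus strand): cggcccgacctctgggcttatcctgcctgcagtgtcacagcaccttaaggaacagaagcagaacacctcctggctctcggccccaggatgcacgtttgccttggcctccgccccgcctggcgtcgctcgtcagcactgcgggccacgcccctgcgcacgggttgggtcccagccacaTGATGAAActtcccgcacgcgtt

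In the 250 bases before the start, 8 of 28 tested list members with a RefSeq promoter (28.6%) held this motif. The share was 2.32% of the 9089 tested autosomal genes with a promoter and 3.91% of all 27025 genes with one. The motif was in 6 of the 16 members that fell and in 2 of the 12 that did not pass.

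Nupr1, a stress-induced chromatin protein, had 11.2, 10.1 and 14.0 FPKM in PC134-0, against 22.6, 31.7 and 24.1 FPKM in PC326-1 (log2 difference -1.11, SE 0.155, adjusted p = 0.0037). Chac1, which degrades glutathione, had 25.2, 19.9 and 21.7 FPKM in PC134-0, against 33.2, 37.7 and 36.5 FPKM in PC326-1 (-0.67, adjusted p = 0.0031). Atf4 itself had 123, 114 and 130 FPKM in PC134-0, against 158, 174 and 154 FPKM in PC326-1 (-0.41). The lines did not overlap at these genes. Among the targets, Asns, the asparagine synthetase, averaged 85.1 and 119 FPKM in PC134-0 and PC326-1 (-0.48), and the serine pathway genes Psat1 (-0.58), Shmt2 (-0.52), Mthfd2 (-0.43) and Psph (-0.36) were lower, while Phgdh, the first enzyme of that pathway, had 137 and 149 FPKM and did not pass. Cbs (-0.79) and Cth (-0.62), which turn homocysteine into cysteine, Aldh1l2 (-0.73) of mitochondrial folate metabolism, and the amino acid transporter genes Slc7a11 (-0.66), Slc7a1 (-0.63), Slc3a2 (-0.60) and Slc7a5 (-0.59) fell as well. Gdf15, a secreted stress cytokine, averaged 0.503 and 1.503 FPKM (-0.99). Ddit3, which encodes CHOP, had 44.1 and 46.5 FPKM in PC134-0 and PC326-1 and did not pass. PC134-0 was the lowest of the 7 lines for 9 of the 20 genes.

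In the endoplasmic reticulum stress list, 9 of 20 genes fell and 1 rose, with a median of -0.22. The background for the lists of this paragraph was 7.02% of all autosomal genes lower and 7.86% higher. Atf6, a stress sensor, averaged 7.31 and 11.3 FPKM in PC134-0 and PC326-1 (-0.60), and Hyou1, a chaperone, 58.0 and 78.2 FPKM (-0.43). Hspa5, the main chaperone of this compartment, had 272 and 298 FPKM and did not pass. The number that fell ranged from 2 to 11 over the alternative settings, so this count is less firm than that of the ATF4 list, where it ranged from 16 to 24. Of 34 glutathione and NRF2 target genes, 8 fell and 4 rose, among them the glutathione enzymes Gsto1 (-1.56) and Gpx8 (-1.20), which were lower, and Gpx3 (1.18) and Gsta4 (0.81), which were higher. Without the shifted chromosomes described below, 6 of 31 fell and 4 rose. Of 15 retinoid and aldehyde dehydrogenase genes, 5 fell and 2 rose.

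Of 22 astrocyte genes tested, 11 rose in PC134-0 (against 7.86% of all autosomal genes), 1 fell and 10 did not pass, with a median log2 difference of 0.35, and the summed level of the 26 list members was 1329.6 to 1449.7 FPKM in PC134-0, against 998 to 1043 FPKM in PC326-1. In a bulk sample, fewer cells of a type and less RNA of that type per cell cannot be told apart. Hepacam, a glial adhesion protein, had 16.9, 15.97 and 16.1 FPKM in PC134-0, against 5.47, 4.37 and 5.67 FPKM in PC326-1 (1.57, SE 0.096, adjusted p = 6.7e-05). Sparcl1, a secreted synapse-promoting protein and the most abundant of the list, had 418, 403 and 452 FPKM in PC134-0, against 239, 258 and 209 FPKM in PC326-1 (0.85). Gja1, the gap junction protein of astrocytes (1.06), Apoe, a lipid carrier (1.02), Acsbg1, an acyl-CoA synthetase (1.01), and Id3, an inhibitor of differentiation (0.97), were higher without overlap of the libraries. S100b differed by 1.47 at 3.37 and 0.961 FPKM in PC134-0 and PC326-1, and it overlaps Dip2a on the opposite strand. Nfia, a factor that starts gliogenesis, was the one that fell, at 9.23 and 16.1 FPKM (-0.77), while Slc1a3 (69.1 and 68.5 FPKM) and Aldoc (168 and 180 FPKM) did not pass. The other 4 list members, Gfap, Aqp4, Aldh1l1 and Gjb6, were under 0.5 FPKM in both lines and were not tested. They had at most 0.154, 0.163, 0.301 and 0.0239 FPKM in any of the 6 libraries.

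Oligodendrocyte lineage genes were less uniform. For the lists of this paragraph, the background was 7.86% of all autosomal genes higher and 7.02% lower. Of 21 progenitor genes, 8 rose and 2 fell, with a median of 0.20, and the 3 above the threshold in PC134-0 only were among those that rose. Lhfpl3 and Pcdh15, described above, led the rise, followed by Matn4 (1.09), Tnr (0.92) and Gpr37l1 (0.91), while Nkx2-2, a factor of the lineage, averaged 9.70 and 16.6 FPKM in PC134-0 and PC326-1 (-0.75). Olig1, Olig2 and Pdgfra did not pass: Olig1 averaged 412 ± 64.3 and 417 ± 44.0 FPKM, Olig2 had 278, 198 and 242 FPKM in PC134-0 and 305, 290 and 315 FPKM in PC326-1 (-0.35, adjusted p = 0.092), and Pdgfra had 12.4 and 11.7 FPKM. The other 5 list members, Sox10, Gpr17, Neu4, Ugt8a and Lims2, were under 0.5 FPKM in both lines and were not tested. Sox10 had at most 0.107 FPKM in any of the 6 libraries. Among 8 mature oligodendrocyte genes, 3 rose and none fell: the connexin gene Gjc3 (26.1 and 7.49 FPKM in PC134-0 and PC326-1), Cnp (30.5 and 16.998 FPKM) and Cryab (9.91 and 6.26 FPKM). Of 23 neural stem and progenitor genes, 5 rose and 3 fell, with Hopx (1.41) and Fabp7 (434 and 277 FPKM, 0.66) higher and Notch1 (35.5 and 57.6 FPKM, -0.69) and Prom1 (-0.56) lower in PC134-0. Of 13 neuronal genes, 5 rose and 2 fell, with Gap43, Elavl4 (1.10) and Gad1 (1.02) higher and Sox11 (-0.94) lower. Sox11 lies in the chromosome 12 segment described below, and without the shifted regions 5 of 10 neuronal genes rose, 1 fell and the median was 0.21, against -0.06 with them.

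Imprinted genes are read from 1 parental copy, and 8 of the 23 tested (34.8%, against 7.86% of all autosomal genes) rose in PC134-0, none fell and 15 did not pass, with a median of 0.20. Dlk1, a Notch-like ligand of stem cells, had 1.94, 1.79 and 2.00 FPKM in PC134-0, against 0.514, 0.855 and 0.565 FPKM in PC326-1 (1.09), and at most 0.0104 FPKM in the other 5 lines. Grb10 (0.72), Nap1l5 (0.70), Peg10 (0.70) and Snrpn (0.53) were higher by smaller steps. Igf2r (28.1 and 29.9 FPKM in PC134-0 and PC326-1), Mest (191 and 221 FPKM) and Gnas (21.3 and 20.3 FPKM) did not pass. Without the shifted chromosomes, 6 of 16 rose.

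Genes of 7 lists of synapse, adhesion, matrix, guidance, receptor and channel proteins went both ways: of 246 tested genes, 68 rose (27.6%) and 48 fell (19.5%), against 7.86% higher and 7.02% lower over all autosomal genes, with a median of 0.06. These 116 genes were among the 1943 calls. Of 45 synaptic and neural adhesion genes, 18 rose and 7 fell, with a median of 0.25, and 4 of the 18 were above the threshold in PC134-0 only. Slitrk5, Cntnap4 (1.26), Tenm2 (1.01) and Ntm (0.94) were higher and Astn2, a guidance gene of migrating neurons, was lower at 6.68 and 19.5 FPKM in PC134-0 and PC326-1 (-1.48). Of 57 matrix and adhesion genes other than collagens, 18 rose and 15 fell, with the integrin genes Itga4 (6.01 and 1.54 FPKM, 1.68) and Itga8 (1.22) higher and Mmp11 (-1.17) lower. Of 16 collagen genes, 7 rose and 2 fell. The 2 that fell were the neighbours Col4a1, with 14.0, 12.2 and 14.3 FPKM in PC134-0, against 25.97, 30.9 and 24.7 FPKM in PC326-1 (-0.98), and Col4a2 (-0.71), which encode the chains of basement membrane collagen and overlap on opposite strands. Of 22 cadherins and non-clustered protocadherins, 7 rose and 5 fell, and of 50 axon guidance genes, 8 rose and 12 fell, with Sema6d at 34.4 and 68.6 FPKM (-0.99) and Plxnd1 at 33.8 and 18.7 FPKM (0.84). Of 16 glutamate and GABA receptor subunit genes, 6 rose and 2 fell, and of 40 ion channel genes, 4 rose and 5 fell. Among these Gabrg1 (1.29), Grm3 (0.87) and Kcnj16 (1.23) were higher and Kcnn4 (-1.92) was lower.

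In the signalling lists, genes were called in both directions, and the share called is set against 14.9% of all autosomal genes. In the TGF-beta and BMP list 6 of 36 rose and 7 fell (36.1% called), with the receptor gene Bmpr1b (3.86 and 0.965 FPKM in PC134-0 and PC326-1, 1.57) and the BMP target Id1 (33.8 and 11.7 FPKM, 1.48) higher and Ltbp4, which stores TGF-beta in matrix, lower (-1.30). Of 35 receptor tyrosine kinase and ligand genes, 7 rose and 3 fell (28.6%), with Vegfc (1.36) and Ntrk2 (21.9 and 12.4 FPKM, 0.81) higher and Axl (5.67 and 10.8 FPKM, -0.87) lower. In the ERK feedback and immediate early list 7 of 26 fell and 1 rose (30.8%), and those that fell included Egr1 (-0.53), Spry1 (-0.48) and Dusp4 (-0.43). Of 25 Notch pathway genes, 4 rose and 5 fell (36.0%), of 35 Wnt pathway genes, 4 rose and 7 fell (31.4%), and of 10 Hedgehog pathway genes, none rose and 4 fell. Wnt7a, a glial Wnt ligand, averaged 24.5 and 11.9 FPKM in PC134-0 and PC326-1 (1.00). Of 23 PI3K and mTOR genes, 2 rose and 1 fell (13.04%), a share near that of all genes. Of 29 mesenchymal glioma genes, 7 rose and 5 fell (41.4%), with Cav1, the coat protein of caveolae, at 16.3 and 4.51 FPKM (1.75).

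Of 40 proliferation genes, 3 rose and 1 fell (4 of 40 called, against 14.9% of all autosomal genes), and the median was 0.07. The gene that fell was Rrm2, which lies in the chromosome 12 segment described below. Of 30 genes of p53 and its targets, 1 rose and 1 fell (Gadd45a, 3.84 and 8.70 FPKM in PC134-0 and PC326-1, -1.08), and of 21 genes of the RB pathway, 3 rose and 1 fell, with the cyclin-dependent kinase gene Cdk6 at 3.31 and 1.64 FPKM (0.83). Without the shifted chromosomes the RB list had 1 of 19 genes higher and 1 lower. Of 34 hypoxia-response genes, 7 rose and 2 fell (26.5% in all), with a median of 0.01. Car9, a carbonic anhydrase, had 10.7, 12.5 and 12.7 FPKM in PC134-0, against 4.97, 6.73 and 5.85 FPKM in PC326-1 (0.98), and Epas1, which encodes the hypoxia factor HIF-2 alpha, averaged 12.6 and 6.82 FPKM (0.84). Ndufa4l2, a mitochondrial protein induced by hypoxia, was lower, with 19.4, 13.5 and 17.5 FPKM in PC134-0, against 33.8, 38.6 and 32.4 FPKM in PC326-1 (-1.04). Ndufa4l2 overlaps Shmt2 on the opposite strand, which was more abundant and also lower (78.0 and 112 FPKM in PC134-0 and PC326-1, -0.52), so fragments may be shared. Of 26 glycolysis and pentose phosphate genes, 3 rose and none fell: Ldhb, a subunit of lactate dehydrogenase, with 242, 241 and 239 FPKM in PC134-0, against 129, 124 and 136 FPKM in PC326-1 (0.89), Pfkp (0.48) and Tpi1 (0.43), of which Ldhb and Tpi1 lie on distal chromosome 6. Of 28 cholesterol genes, 1 rose and 2 fell, of 17 DNA methylation and TET genes, 3 rose and 2 fell (2 and none of 12 without the shifted chromosomes), and of 26 retroelement silencing genes, 1 rose and 1 fell (7.69% in all).

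Markers of other cell types that a culture could hold were near 0, with a few exceptions. Of 16 microglia and macrophage genes, 13 were under 0.5 FPKM in both lines and 5 had no fragment, and the summed level was 37.5 to 40.8 FPKM in PC134-0, against 34.6 to 41.2 FPKM in PC326-1. Cd68, a lysosomal protein of macrophages, had 4.28, 4.92 and 5.95 FPKM in PC134-0, against 0.868, 0.704 and 1.07 FPKM in PC326-1 (2.01), and P2ry12, which overlaps Med12l on the opposite strand, averaged 1.36 and 0.226 FPKM (1.36). The defining markers Cx3cr1, Csf1r, Ptprc, Aif1 and Trem2 were at most 0.0834 FPKM in the 6 libraries. Of 12 endothelial genes 9 and of 16 pericyte and fibroblast genes 11 were under 0.5 FPKM in both lines, as were all 13 lymphocyte and erythroid genes, 8 of them without a fragment. Flt1 (1.598 and 0.661 FPKM in PC134-0 and PC326-1) was the endothelial gene that rose, Vtn and Acta2 were the pericyte genes that fell and Cspg4 (33.3 and 25.3 FPKM), also an oligodendrocyte progenitor marker, rose. Of 12 ependymal genes, 9 were under 0.5 FPKM in both lines, and none of the 3 tested passed (Foxj1, 0.686 and 0.757 FPKM). The part of these markers in the results above was not tested.

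The calls were not spread evenly over the genome. On chromosome 19, 179 of 441 tested genes were lower in PC134-0 and 17 higher, the median log2 difference was -0.29 and 87.3% of the genes lay below 0, a typical level 1.22-fold lower. Chromosome 6 leaned the other way, with 165 of 663 genes higher and 34 lower and a median of 0.16. The median of the other 17 autosomes was between -0.04 and 0.06. Along chromosome 6 the shift lay on one side: in bins of 20 Mb, the median over coding genes was between -0.04 and 0.02 up to 80 Mb and 0.22, 0.26, 0.33 and 0.20 in the bins beyond. Chromosome 19 was low throughout, with medians of -0.30, -0.19, -0.31 and -0.19 in its 4 bins. Set against the median of the 5 lines outside the pair, coding genes of chromosome 19 had a median of -0.01 in PC134-0 and 0.29 in PC326-1, and those of chromosome 6 had 0.22 in PC134-0 and 0.04 in PC326-1. DNA copy number was not measured, so its part in these shifts was not tested.

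**Figure D4:**
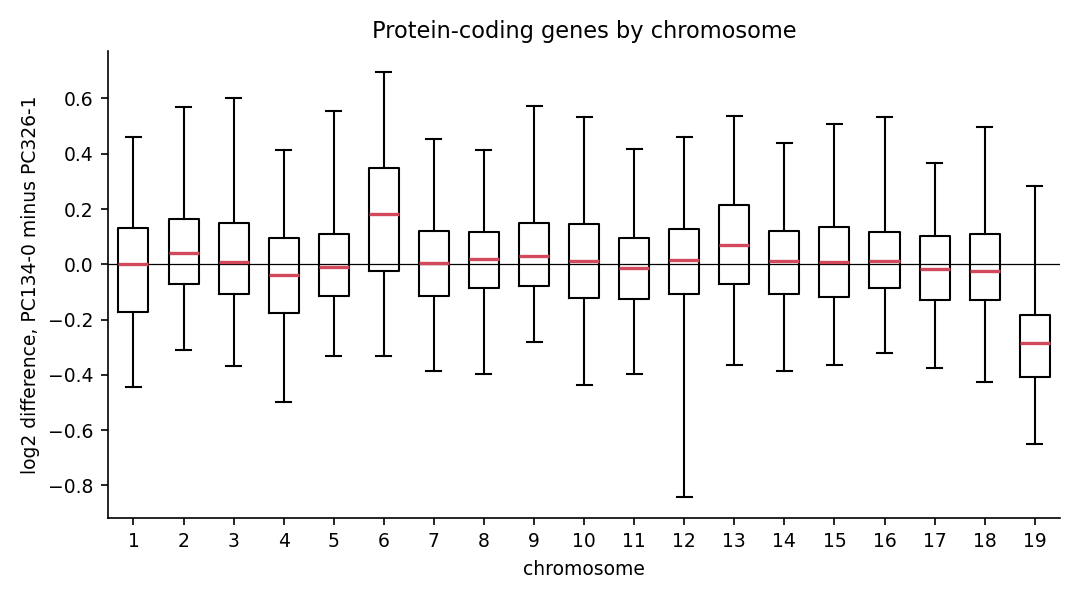
Log2 difference, PC134-0 minus PC326-1, of protein-coding genes on each autosome, with the median in red, boxes from the lower to the upper quartile and whiskers at the 5th and 95th percentiles. The box of chromosome 19 lies below 0, that of chromosome 6 mostly above, and the lower whisker of chromosome 12 is the longest.

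The long tail of chromosome 12 came from one run of neighbouring genes, which was chosen after its values were seen and is described without a test of its own. Between Taf1b and Dld, from 24498359 to 31351453 (6.85 Mb), 20 of 22 coding genes were lower in PC134-0, 17 of them at least 2-fold, and the median log2 difference was -1.38, or 2.61-fold. Coding genes of chromosome 12 before and after this stretch had medians of 0.03 and 0.03, and of the 14 nearest coding neighbours 3 passed, within -0.53 to 0.42. Taf1b, a subunit of the RNA polymerase I selectivity factor at one end, had 1.87, 2.79 and 2.17 FPKM in PC134-0, against 8.32, 9.08 and 7.93 FPKM in PC326-1 (-1.70). Dld, the dihydrolipoamide dehydrogenase shared by mitochondrial dehydrogenase complexes at the other end, had 21.4, 23.8 and 22.3 FPKM in PC134-0, against 75.5, 74.7 and 76.4 FPKM in PC326-1 (-1.73, SE 0.0589, adjusted p = 5.2e-06). Next to Dld, Cbll1 and Bcap29 had differences of 0.10 and -0.01.

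Inside the stretch, Rps7, a protein of the small ribosomal subunit, had 125, 121 and 129 FPKM in PC134-0, against 412, 507 and 440 FPKM in PC326-1 (-1.85), though processed copies of ribosomal protein genes can share its fragments. Rrm2, the small subunit of ribonucleotide reductase that makes deoxynucleotides for DNA synthesis, had 24.0, 21.9 and 21.2 FPKM in PC134-0, against 63.8, 51.1 and 64.8 FPKM in PC326-1 (-1.39). Mboat2 (-1.74), Trappc12 (-1.69), Kidins220 (-1.40) and the laminin gene Lamb1 (-1.08) followed the same course. Id2 (-0.64) and Rnf144a (-0.49) fell by less. The 2 genes that did not fall, Rsad2 and Cmpk2, are neighbours that interferon induces: Rsad2 had 5.82, 8.46 and 6.24 FPKM in PC134-0, against 2.88, 3.86 and 3.15 FPKM in PC326-1 (0.94), and Cmpk2 averaged 2.09 and 2.34 FPKM and did not pass.

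For the stretch, both lines stood apart from the rest of the series. PC326-1 lay above all 5 lines outside the pair for 19 of the 22 coding genes, and PC134-0 lay below all 5 for 12. Relative to the median of the other 5 lines, the genes of the stretch had a median of -0.43 in PC134-0 and 0.90 in PC326-1. On the rest of chromosome 12 the lines were alike and low on that scale, at -0.77 and -0.72 in PC134-0 before and after the stretch and at -0.85 and -0.73 in PC326-1. Rps7 averaged 125 FPKM in PC134-0 and 453 FPKM in PC326-1, and 210.2 to 309 FPKM in the other lines.

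**Figure D5:**
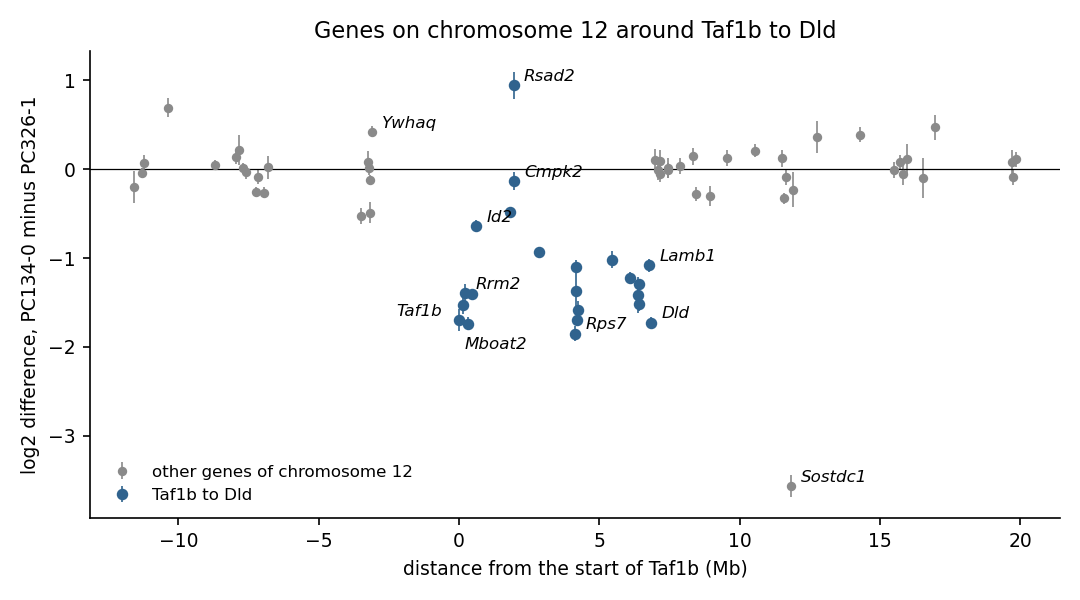
Log2 difference, PC134-0 minus PC326-1, of coding genes of chromosome 12 against the distance of their start from that of Taf1b (Mb), with bars of 1 SE; blue points are the 22 genes from Taf1b to Dld. The blue points lie between -0.49 and -1.85 except Rsad2 at 0.94 and Cmpk2 at -0.13, grey neighbours lie near 0, and Sostdc1 at -3.56 is a single gene outside the stretch.

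Shorter runs were smaller in size. Among runs of 15 neighbouring coding genes, the next lowest medians were -0.56 on chromosome 19 from Ints5 to Fads3 and -0.41 on chromosome 1 from Creg1 to Ddr2, with 11 of the 15 genes lower and none higher on chromosome 1. The highest was 0.53 on chromosome 2 from Atp5c1 to Rsu1, where Itih5 lies, with 8 of 15 genes higher and none lower. These runs were also picked by their values.

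At the 162 genes at least 2-fold higher in PC134-0, the third IDH1 WT line, PC308-1, was nearer to PC134-0 for 74 (45.7%), and at the 108 genes at least 2-fold lower it was nearer to PC134-0 for 62 (57.4%), against 50.3% of all tested genes. The IDH1 mutant lines were nearer to PC134-0 for 16% to 37% of the higher genes and for 52.8% to 65.7% of the lower genes, against 44.3% to 47.2% of all tested genes. Since PC134-0 and PC326-1 enter both sides of this count, it describes where the lines lie and carries no test.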

How the data were processed

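The tests used 6 of the 21 mRNA libraries, 3 of PC134-0 and 3 of PC326-1. Paired-end, strand-specific sequencing followed polyA capture and removal of rRNA, per the labels' protocols. HISAT2 and mm39 are named in the submitters' processing notes. Not given in the sources used here are the program that counted reads, its annotation and whether it used strand.

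The authors deposited FPKM per gene, a level scaled for length and depth. The coordinates in the table were those of GRCm38 for 53585 of the 54495 gene IDs found in the GENCODE annotation of that build, so positions are given as GRCm38. Gene symbols turned into dates (27) were restored by gene ID. Values under 1000 fragments were whole multiples of 1 fragment within 0.05 for 100% of values, so fragments could be recovered. Gene length came from the authors' deposited table.

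Tests were run in R 4.3.3 with limma 3.58.1 (lmFit, eBayes with trend and robust) on log2(FPKM + 0.5), the log2 values being computed here from the authors' FPKM. The fit held 13593 genes of all chromosomes with a line mean of at least 0.5 FPKM, and p-values were adjusted over all of them by Benjamini-Hochberg, with 0.05 as threshold. Log2 differences are on this scale and understate the change of low genes. Counting intervals are exact at 95% and cover counting error only. The fit was tested on simulated data. Figures were drawn with matplotlib 3.10.9.

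The comparison, the 47 gene lists and the naming rule were chosen with earlier results of these data known. Named were the 15 largest log2 differences each way among genes that passed and did not overlap, without predicted genes or clustered protocadherins, up to 6 members of each list that passed by size or else the 2 with the smallest p, the most abundant gene of each cell type list, Cgas and Idh1. Other genes, such as those that did not pass, the remaining HoxA genes and those of the chromosome 12 segment, were chosen after their values were seen. Promoters are from RefSeq (GRCm38.p6), matched by symbol.

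Alternatives were pseudocounts of 0.1 and 1, no filter, a filter of 2 FPKM, a filter on the mean of the 6 libraries, quantile normalization, TPM, median-of-ratios scaling, plain eBayes, autosomal or protein-coding genes only, all 21 libraries in the fit, limma voom on recovered fragments, the replicate number as a block, and leaving out each library. Lists without chromosomes 6 and 19 and the chromosome 12 segment were added after seeing the data. A few genes are not reported here by name, though list counts and summed levels include them.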

Additional observations from a re-analysis of the deposited data

How the results depend on the processing

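The count of autosomal genes that differed stayed within 1.5 times of 1943 under every other setting except one: it ranged from 1191 to 1597 when 1 library was left out, and 1191 was the value without PC326-1 replicate 1. The 2-fold count of 270 ranged from 266 to 286 when 1 library was left out. It was 389 with a pseudocount of 0.1, 156 with a pseudocount of 1 and 483 with limma voom on recovered fragments. The pseudocount limits how far low genes can differ, while the part of the voom model in its count was not tested. Interferon-stimulated genes that rose numbered 23 to 32 and ATF4 list genes that fell 16 to 24 over all settings, against 30 and 20 as reported. The median of the chromosome 12 stretch lay between -1.42 and -1.09. Among the named genes, 4334 values stayed on their side of the threshold, 297 (of 57 genes) lost the call and 7 turned in sign. The 7 were of 2 genes without a call: Olig1, -0.02 as reported, was at 0.044 with TPM, at 0.10 with quantile normalization and at -0.15 to 0.065 when 1 library was left out; Idh1, -0.05 as reported, was at 0.013 with TPM. The cause was not tested.

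Replicate numbers did not pair the libraries: deviations of same-numbered libraries from their line means correlated at 0.02, -0.03 and -0.09 (3 pairs), and not every library correlated best with its own number. With the replicate number as a block, 1420 genes were called, 263 of them at least 2-fold. Depth limits the genes with few fragments, such as Hoxa10 and Mir6993, and small differences of genes near the threshold of 0.5 FPKM.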

Other observations

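Genes outside the autosomes differed at a like rate. On the X chromosome, 43 of 492 tested genes were higher in PC134-0 and 21 lower at a limma adjusted p under 0.05. Of 30 genes of the mitochondrial genome, 4 passed. Among 222 tested autosomal lincRNAs, 21 passed, and among 11179 tested coding genes, 1836 did.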
